A study of Rattus norvegicus with 7 samples.

Results

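Mitochondria fold and police their own proteins. Most of these proteins are made in the cytosol and enter the matrix unfolded, pulled in by the mitochondrial Hsp70 (Hspa9) and its nucleotide exchange factors Grpel1 and Grpel2. In the matrix they are folded by Hspa9 or inside the chaperonin cage built from Hspd1 (Hsp60) and its lid Hspe1 (Hsp10), while Trap1 is the Hsp90 of this compartment. Misfolded proteins are degraded by Lonp1 and by the protease Clpp with its unfoldase Clpx, and Htra2 is a serine protease of the intermembrane space. Cells are known to raise these genes when mitochondrial proteins misfold and, for some of them, after heat shock.

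These genes were chosen by symbol from the 17147 gene symbols of the deposited tables. Of the 10 symbols, 9 were analysed (Hspd1, Hspe1, Hspa9, Trap1, Grpel1, Grpel2, Lonp1, Clpx and Htra2), and Clpp was not analysed here. All 9 passed the filter on low values described below.

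The cells were rMSCs, primary mesenchymal stem cells from rat bone marrow, kept in alpha MEM with 10% serum and seeded at 20000 cells per specimen. RNA was collected 4 h later from cells on ISB-P, a polycaprolactone-polyurethane copolymer with propoxylated isosorbide (3 libraries), on PCL, a plain polycaprolactone film (3 libraries), and on TCP, uncoated tissue culture plastic (1 library). Films were 16 mm in diameter and sterilized with ethylene oxide gas, all cells were wild type, and no agent was added. The study compared the surfaces to learn which transcripts accompany the stronger cell adhesion to ISB-P. The methods describe isolating rMSCs from a male Sprague-Dawley rat. Nothing in the labels says that the 3 libraries of a film came from separate animals or cultures. The p-values therefore measure only the spread between these libraries, which may be technical.

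The deposited tables name no unit, and their values were read as FPKM, fragments per kilobase of transcript scaled to the fragments of the library, so that levels can be compared between genes. Their total was 539393 on TCP, between 542921 and 597954 on PCL and between 590628 and 660124 on ISB-P. Read depth is unknown, and no counting error is given. Libraries with the same replicate number moved together on both films, and the replicate 3 libraries had the largest sums. What a shared number stands for is not stated. Each result is therefore given from a fit that ignores these numbers and, where it differs, from one that takes them as a block (the replicate block).

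The cell type named in the labels was checked against its markers. The mesenchymal markers Col1a1, Vim, Thy1, Itgb1 and Cd44 were at 275 FPKM or more in every library. Of the other 4, Pdgfrb lay between 86.6 and 177 FPKM, Alcam between 17.1 and 40.3, Eng between 11.1 and 19.2 and Nt5e between 8.13 and 12.9. Pdgfrb was lower on ISB-P than on PCL by a log2 fold change of -0.76 (limma adjusted p = 0.0510 without the block and 1.41e-04 with it), and no other marker of the list was called. All 9 markers together summed to 17968 FPKM on TCP, 11581 to 13379 on PCL and 10264 to 13367 on ISB-P. The blood and macrophage markers summed to 59.02 FPKM on TCP, 23.2 to 26.7 on PCL and 19.4 to 22.1 on ISB-P. Their most abundant gene was Cd14, which was lower on ISB-P than on PCL by a log2 fold change of -0.42 (limma adjusted p = 0.175 without the block and 0.00663 with it), without overlap of the films. Its part in the differences between the films was not tested. Cd34 was listed at 0 in every library. Endothelial markers summed to less than 1 FPKM in each library.

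The levels of the mitochondrial genes fell into 3 groups. On PCL, Hspd1 was highest at 339 ± 98.5 FPKM (SD, n = 3), followed by Hspe1 at 248 ± 7.71 and Hspa9 at 163 ± 36.0. The libraries of Hspd1 and Hspe1 overlapped, whereas those of Hspe1 and Hspa9 did not. Far below came Grpel1 at 36.9 ± 2.01 FPKM, Trap1 at 36.7 ± 1.26, Lonp1 at 35.5 ± 4.95 and Htra2 at 33.7 ± 1.72, and among these each gene overlapped its neighbour in the order. Clpx at 19.1 ± 5.20 and Grpel2 at 13.1 ± 3.34 FPKM were lowest and overlapped each other, and Clpx did not overlap Htra2. Hspd1, Hspe1 and Hspa9 together made up 69.5% of the summed FPKM of the 9 genes on TCP, 78.2% to 83.5% on PCL and 85.9% to 92.3% on ISB-P.

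**Figure D1:**
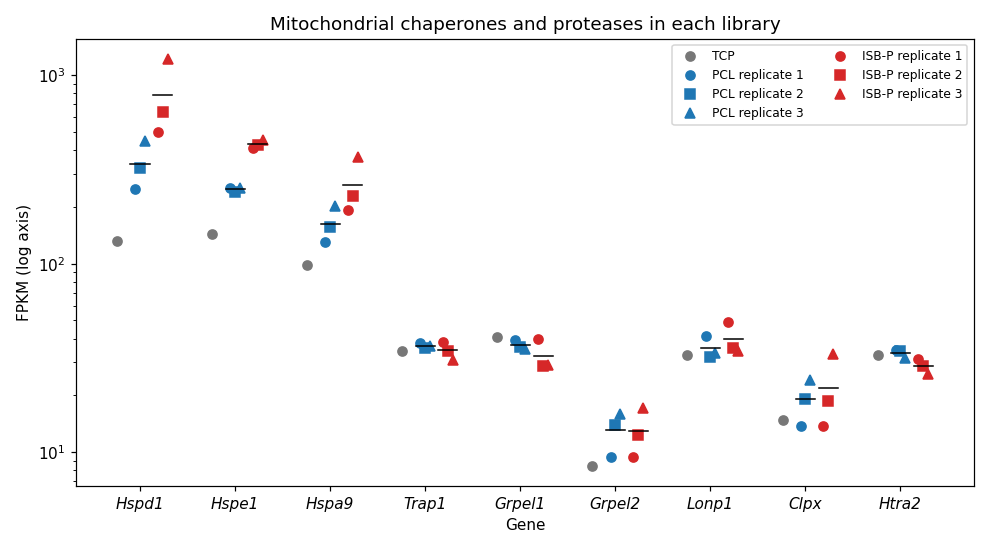
FPKM (log axis) of the 9 mitochondrial genes in each of the 7 libraries, with colour for the surface, marker shape for the replicate number and a short line for the mean of each film. Hspd1, Hspe1 and Hspa9 lie at 97.9 FPKM or more in every library, while the other 6 genes lie at 49.3 FPKM or less. The means of Hspd1, Hspe1 and Hspa9 are highest on ISB-P, although the films overlap for Hspa9.

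The chaperonin genes Hspd1 and Hspe1 and the mitochondrial Hsp70 gene Hspa9 were higher on ISB-P than on PCL, and the other 6 genes were not called in either direction with or without the replicate block. A gene entered the comparison if 3 or more of the 6 film libraries held it at 1 FPKM or above, which left 9467 genes. These were compared on log2(FPKM + 1) with limma, and a gene was called at a Benjamini-Hochberg adjusted p under 0.05. Without the replicate block 1 of the 9 genes was called higher (Hspe1), beside 1.10% of all tested genes. With the block 3 were called higher (Hspd1, Hspe1 and Hspa9), beside 13.0%. None of the 9 was called lower in either fit, beside 0.623% and 11.4% of tested genes, though 2 were with the block and values scaled to a common total (Grpel1 and Htra2). At an unadjusted p under 0.05 without the block, 3 were higher and 0 lower, where 1145 of the 9467 tested genes passed in either direction. The median log2 fold change of the 9 genes was 0.13, and that of all tested genes 0.02. The median of the 9 was -0.06 without PCL replicate 1 and -0.01 without ISB-P replicate 3. It was 0.06 with upper quartile scaling, 0.08 with quantile normalization and 0.02 with values scaled to a common total. The medians of all tested genes were then -0.05, -0.02 and -0.09.

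Hspe1, the lid of the chaperonin, was 409.7, 425 and 452 FPKM in replicates 1, 2 and 3 of ISB-P, 251, 239 and 253 on PCL, and 144 on TCP. It was the steadiest of the 3 genes: every ISB-P library lay well above every PCL library, and replicates of a film differed little. It rose by a log2 fold change of 0.79 (standard error 0.11, limma adjusted p = 0.0220 without the block and 9.30e-05 with it), and the ratios of ISB-P to PCL within replicates 1, 2 and 3 were 1.63, 1.78 and 1.79. Leaving out ISB-P replicate 3 kept the call (limma adjusted p = 0.0445), and leaving out any other film library ended it, with adjusted p-values of 0.107, 0.170 and 0.113 without PCL replicates 1, 2 and 3 and of 0.0615 and 0.170 without ISB-P replicates 1 and 2, while the log2 fold change stayed between 0.75 and 0.82.

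Hspd1, the cage subunit, was 501, 639 and 1216 FPKM in replicates 1, 2 and 3 of ISB-P, 250, 322 and 445 on PCL, and 132 on TCP. Every ISB-P library again lay above every PCL library, but the replicates were far apart, with replicate 3 highest on both films. The log2 fold change was 1.14 (95% interval 0.30 to 1.99), with a limma adjusted p of 0.232 without the block and 9.73e-05 with it. The 20 pseudogenes and 2 similar coding genes that carry its name in the GRCr8 gene table have no values here. How reads shared with such copies were assigned is not stated, so the level of Hspd1 is uncertain. The same limit holds for Hspe1, with 1 pseudogene, and for Hspa9, with 2, also without values here.

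Hspa9, which drives import and folding, was 194, 229 and 366 FPKM in replicates 1, 2 and 3 of ISB-P, 130, 156 and 201 on PCL, and 97.9 on TCP. The films overlapped, since PCL replicate 3 lay above ISB-P replicate 1, although each ISB-P library was above the PCL library with its own number. The ratios within replicates 1, 2 and 3 were 1.49, 1.47 and 1.82. Its log2 fold change was 0.66 (95% interval 0.02 to 1.30), with a limma adjusted p of 0.395 without the block and 6.94e-04 with it. Without ISB-P replicate 3 the log2 fold change was 0.40.

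The study selected genes by a change of more than 2-fold, a p below 0.1 and a normalized level over 16. The p was taken here as the unadjusted one of limma without the block, whereas the study used other software (ExDEGA). The level was taken as a mean of 16 FPKM or more on PCL or on ISB-P. In this fit Hspd1 was the single gene of the 9 to pass these thresholds as higher, beside 0.613% of tested genes. None passed as lower, beside 0.0739%. The heat shock and folding genes that the paper names as higher do not include Hspd1, and its text does not list every selected gene. Hspd1 no longer passed without ISB-P replicate 3, which lowered its log2 fold change to 0.78, or without PCL replicate 1, which lowered it to 0.95. Of all tested genes, 0.634% had a larger log2 fold change than Hspd1, 1.61% than Hspe1 and 2.29% than Hspa9.

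Hspd1 and Hspe1 lie head to head in the rat genome, and their promoters are shown because the pair shares the stretch upstream of both starts. In the RefSeq promoter table (GRCr8) the starts have 289 bases between them, so that the windows of 250 bases before the start overlap. Promoters of 7 of the 10 genes were found in that table, and those of Lonp1, Clpx and Htra2 were not. The 7 were searched on both strands for GAANNTTC and TTCNNGAA, the cores of the heat shock element to which heat shock factors bind. These letters read the same on either strand, and neighbouring matches share bases. The Hspd1 and Hspe1 windows hold the same run of 3 overlapping cores, at chr9:64084262-64084279, which begins 65 bases before the start of Hspe1. The Hspa9 window has a GAANNTTC core 84 bases before its start and a TTCNNGAA core after it. For comparison, the promoters of Hspa8 and Hsph1, cytosolic chaperones that rose on ISB-P, are shown around their runs of 2 overlapping cores. They were chosen because they hold such runs, and the windows of Hspa1a, Hspa1l and Hspa4, which were also called higher on ISB-P (Hspa4 with the block alone), held no core. Capitals mark the matched letters, and each line runs 5′ to 3′ on the strand of the gene named.
Hspe1, chr9:64084221-64084320, plus strand: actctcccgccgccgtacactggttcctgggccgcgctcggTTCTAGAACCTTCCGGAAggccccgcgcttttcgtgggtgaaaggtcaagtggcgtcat
Hspa9, chr18:26828459-26828498, minus strand: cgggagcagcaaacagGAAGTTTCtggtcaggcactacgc
Hspa8, chr8:50080445-50080484, plus strand: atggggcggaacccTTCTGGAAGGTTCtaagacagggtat
Hsph1, chr12:10427318-10427357, plus strand: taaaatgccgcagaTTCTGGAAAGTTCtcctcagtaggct
The window of Hspd1 holds the run of 3 cores on the opposite strand, with part of the bases of the Hspe1 line around it. Of all 33469 promoters in the table, 15.9% hold at least 1 of both cores. A run of 2 overlapping cores that begins with TTCNNGAA is in 0.798%. The run of 3 found in Hspe1 is in 10 promoters, or 0.0299%, those of Hspd1 and Hspe1 among them. Both runs were searched for after these promoters had been read. The window of Clpp, whose expression was not analysed here, held a GAANNTTC core 166 bases and a TTCNNGAA core 6 bases before its start. In all, 4 of the 7 promoters held a core, with Hspd1 and Hspe1 counted separately for the run they share. The windows of Trap1, Grpel1 and Grpel2 held neither. TGATGNAA, the core of the element bound by ATF4, was matched in Hspa9 alone among these promoters, and 3.98% of all promoters hold it. A match describes the letters in the window and not binding.

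The other 6 genes, the exchange factors, Trap1 and the proteases, were not called between the films in either fit. With the block and values scaled to a common total, Grpel1 (log2 fold change -0.31, limma adjusted p = 0.0282) and Htra2 (log2 fold change -0.34, limma adjusted p = 0.0102) were called lower. Lonp1, the main matrix protease, was 49.3, 35.9 and 34.3 FPKM in replicates 1, 2 and 3 of ISB-P, 41.2, 31.9 and 33.5 on PCL and 32.8 on TCP. The films overlapped, and the log2 fold change was 0.15 (95% interval -0.29 to 0.59, limma adjusted p = 0.900). Clpx, the unfoldase, was 13.7, 18.7 and 33.1 FPKM on ISB-P, 13.8, 19.1 and 24.2 on PCL and 14.9 on TCP, where the spread between replicates exceeded any difference between the films (log2 fold change 0.13, 95% interval -0.67 to 0.94). With 1 film library left out, the log2 fold change ranged from -0.20 to 0.40 for Clpx and from -0.00831 to 0.26 for Lonp1.

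Htra2 was 31.3, 28.8 and 26.1 FPKM in replicates 1, 2 and 3 of ISB-P, 34.7, 34.6 and 31.7 on PCL and 33.0 on TCP. Every ISB-P library lay just below every PCL library, which was also so for 9.54% of tested genes. The log2 fold change was -0.22 (95% interval -0.52 to 0.08), with a limma adjusted p of 0.609 without the block and 0.0549 with it. Hspd1 and Hspe1 separated the films in the other direction, as 8.17% of tested genes did.

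Trap1 was 38.6, 34.6 and 30.9 FPKM in replicates 1, 2 and 3 of ISB-P and 38.1, 35.6 and 36.5 on PCL, a log2 fold change of -0.08 (95% interval -0.40 to 0.23). Grpel1 was 39.7, 28.8 and 29.0 FPKM on ISB-P and 39.2, 36.2 and 35.3 on PCL, a log2 fold change of -0.19 (95% interval -0.58 to 0.19). Grpel2 was 9.45, 12.4 and 17.2 FPKM on ISB-P and 9.43, 14.0 and 15.9 on PCL, a log2 fold change of -0.02 (95% interval -0.64 to 0.60). The films overlapped for all of these genes. With 1 film library left out, the log2 fold change ranged from -0.16 to -0.01 for Trap1, -0.34 to -0.12 for Grpel1 and -0.23 to 0.17 for Grpel2. With the replicate block the intervals were narrower, for instance -0.02 to 0.32 for Lonp1 and -0.21 to 0.17 for Grpel2. Differences within these intervals are not excluded by these libraries.

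**Figure D2:**
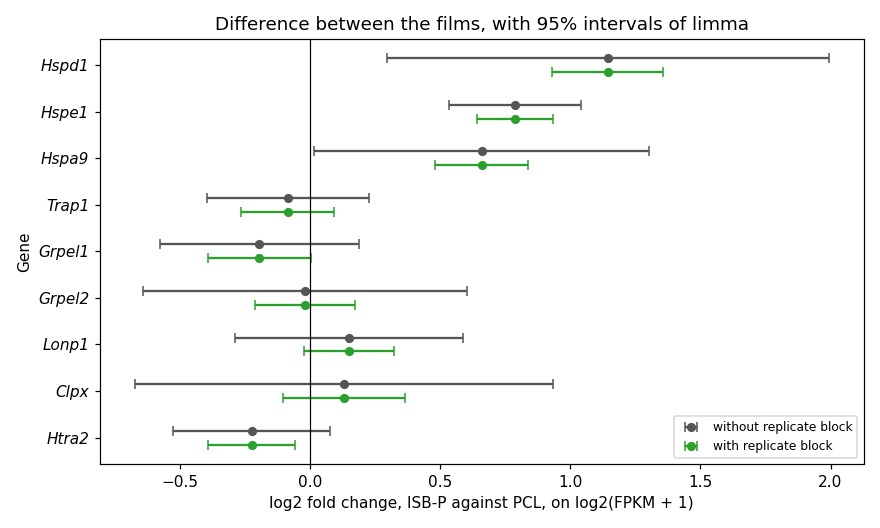
Log2 fold change of each gene between ISB-P and PCL on log2(FPKM + 1), with 95% intervals from limma without the replicate block (grey) and with it (green). Hspd1, Hspe1 and Hspa9 lie at 1.14, 0.79 and 0.66 with intervals above 0 in both fits, and the intervals of the others include 0 except that of Htra2 with the block, which lies between -0.39 and -0.06.

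Whether the genes changed unequally was tested on their log2 ratio within each library for 5 pairs, by an exact permutation test over the 3 libraries of each film (two-sided, for which 0.1 is the smallest p that 3 against 3 allow). The log2 ratio of Hspd1 to Hspa9 was 1.04 ± 0.10 on PCL and 1.52 ± 0.19 on ISB-P (SD, n = 3), a difference of 0.48 without overlap (exact permutation p = 0.1, adjusted over the pairs 0.333). In FPKM, Hspd1 was 1.92 to 2.21 times Hspa9 on PCL, 2.59 to 3.32 times on ISB-P and 1.35 times on TCP. For Hspd1 and Hspe1 the log2 ratio was 0.41 ± 0.41 on PCL and 0.77 ± 0.59 on ISB-P, a difference of 0.36 (exact permutation p = 0.5, adjusted 0.625). Hspd1 was 1.22 to 2.69 times Hspe1 on ISB-P, 0.997 to 1.76 times on PCL and 0.918 times on TCP. Hspd1 against Lonp1 and Hspa9 against Grpel1 differed by 0.99 and 0.85 between the films (exact permutation p = 0.2 and adjusted p = 0.333 for each), and Grpel1 against Grpel2 by -0.17 (exact permutation p = 0.8). Taken within replicate numbers, the difference was positive in 3 of 3 numbers for Hspd1 against Hspe1 (0.36 ± 0.23, SD), Hspa9 (0.48 ± 0.09) and Lonp1 (0.99 ± 0.37) and for Hspa9 against Grpel1 (0.85 ± 0.29), each with an exact sign-flip p of 0.25, the smallest that 3 numbers allow. Without ISB-P replicate 3 the differences of Hspd1 from Hspe1 and from Lonp1 and of Hspa9 from Grpel1 were 0.03, 0.53 and 0.52. The difference of Hspd1 from Hspe1 was also 0.15 without PCL replicate 1, 0.56 without PCL replicate 3 and 0.59 without ISB-P replicate 1. That of Grpel1 from Grpel2 was 0.07 without PCL replicate 1, 0.10 without ISB-P replicate 3 and -0.52 without ISB-P replicate 1.

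Hspd1, Hspe1, Hspa9 and Grpel2, 4 of the 9 genes, were lower on TCP than in every film library, as were 29.7% of all tested genes. Hspd1 was 5.94 times the TCP level in the mean of ISB-P and 2.56 times in the mean of PCL. Hspe1 was 2.98 and 1.72 times the TCP level, and Hspa9 2.69 and 1.66 times. Over 2-fold on log2(FPKM + 1), 3 of the 9 genes were higher on ISB-P than on TCP (Hspd1, Hspe1 and Hspa9), beside 8.98% of tested genes, and 1 was higher on PCL than on TCP (Hspd1), beside 5.56%. None was over 2-fold lower, beside 4.28% and 3.04%. Both comparisons share the TCP library, which has no replicate, so they were not tested.

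Of the others, Grpel2 was 1.53 times the TCP level on ISB-P and 1.55 times on PCL, and Clpx 1.47 and 1.28 times. Lonp1, Trap1, Htra2 and Grpel1 lay between 0.796 and 1.21 times. The median log2 ratio of the 9 genes was 0.52 on ISB-P and 0.34 on PCL, where the medians of all tested genes were 0.08 and 0.07. The median on PCL was 0.15 without PCL replicate 3 and 0.51 without PCL replicate 1, and that on ISB-P was 0.33 without ISB-P replicate 3 and 0.32 with values scaled to a common total. The TCP library also held the highest value of 6 of the 8 blood and macrophage markers, with Cd14 at 31.7 FPKM against 15.3 ± 1.11 on PCL and 11.2 ± 0.266 on ISB-P (SD, n = 3). Their part in the difference from TCP was not tested. In bulk RNA, fewer cells of a type and less RNA per cell cannot be told apart.

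**Figure D3:**
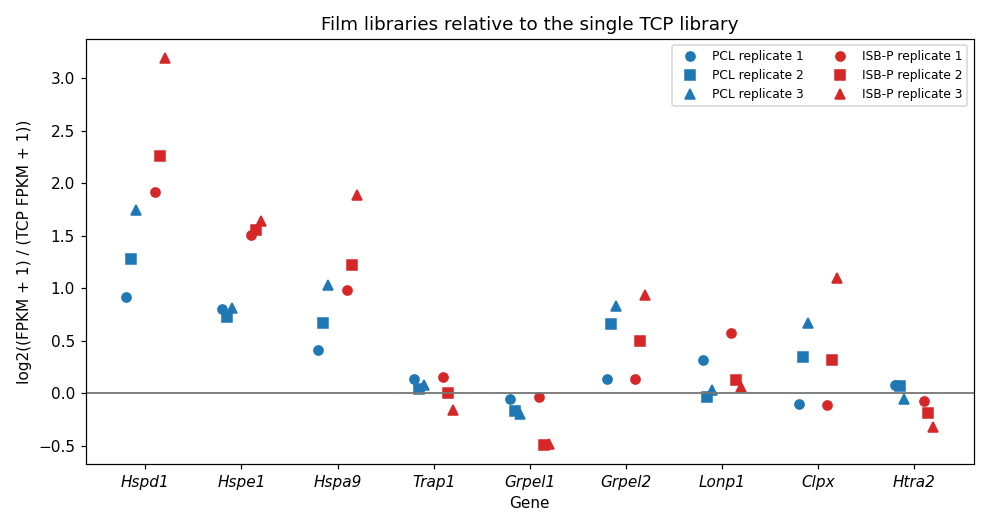
Log2 ratio of FPKM + 1 in each film library to the single TCP library, for the 9 genes. All points of Hspd1, Hspe1 and Hspa9 lie above 0, with the ISB-P means at 2.56, 1.57 and 1.42, and the points of Trap1, Lonp1, Clpx and Htra2 scatter on both sides of 0.

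The genes around this set were taken from lists of the wider mitochondrial quality control system. Among 12 tested proteases and scaffold genes, 1 was called higher without the block, beside 1.10% of all tested genes. It was Xpnpep3, a mitochondrial aminopeptidase, at 14.3 ± 1.45 FPKM on ISB-P and 7.06 ± 0.389 on PCL (SD, n = 3; log2 fold change 0.92, standard error 0.13, limma adjusted p = 0.0220). With the block Pitrm1, which degrades cleaved presequences, was also called higher (log2 fold change 0.28, limma adjusted p = 0.0224) and Mipep, which trims imported precursors, was called lower (log2 fold change -0.29, limma adjusted p = 0.0439). These counts with the block, 2 higher and 1 lower of 12, lie near the shares of all tested genes, 13.0% and 11.4%. Lactb had a log2 fold change of -0.25 and was not called. The median of the list was 0.05, and -0.06 with values scaled to a common total. Yme1l1 and, among the translocases, Timm17b are listed at 0 in all 7 libraries, and since such genes are in use in most cells, a 0 here can be a failed estimate.

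None of the 8 other mitochondrial chaperones and cochaperones was called in either fit. Of those with the largest log2 fold changes, Dnajc19 (a J-domain protein of the import motor) was at 0.24, Hscb (the cochaperone of iron-sulfur cluster assembly) at -0.21, Dnajc15 at 0.13 and Dnlz at 0.09. Of 9 import translocases, 1 was called higher and only with the block, the receptor Tomm70a, at 76.3 ± 14.8 FPKM on ISB-P and 61.5 ± 13.4 on PCL (SD, n = 3; log2 fold change 0.31, limma adjusted p = 0.727 without the block and 0.0126 with it), a count no larger than the 13.0% of all tested genes gives. Timm44, which tethers Hspa9 to the translocase, Timm17a and Tomm20 had log2 fold changes of 0.22, 0.18 and 0.16 and were not called. The medians of the chaperones and of the translocases were 0.03 and 0.12, and -0.08 and 0.0014 with values scaled to a common total.

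Among 12 genes of general mitochondrial function, from citrate synthase to the ATP synthase, the median log2 fold change was 0.01, or -0.10 with values scaled to a common total, and none was called without the block. With it, cytochrome c (Cycs, log2 fold change 0.54, limma adjusted p = 0.0145) was called higher and the mitochondrial ribosomal protein gene Mrpl12 (log2 fold change -0.30, limma adjusted p = 0.0225) lower, counts that do not exceed the 13.0% and 11.4% of all tested genes. Tfam and Tomm34 were at 0.21 and -0.18 and were not called.

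Among 8 regulators of the mitochondrial unfolded protein response, Ddit3 (CHOP), a stress transcription factor, rose on ISB-P, where it stood at 56.1 ± 11.9 FPKM against 14.9 ± 2.14 for PCL (SD, n = 3; log2 fold change 1.84, limma adjusted p = 0.00805). Atf4 was 445 ± 33.7 and 300.1 ± 20.0 FPKM on ISB-P and PCL, and Atf5 43.9 ± 10.2 and 30.7 ± 5.78. Both were called with the block alone (limma adjusted p = 5.23e-04 and 0.00204, and 0.0834 and 0.459 without it). That made 1 of the 8 called higher without the block and 3 with it, beside 1.10% and 13.0% of all tested genes, and none lower. Ubl5 had a log2 fold change of 0.23, Cebpb of 0.03, Eif2ak1 of 0.01, Hsf1 of -0.02 and RGD735029 (Dele1) of -0.07, and none of these was called. The median of the list was 0.13, or 0.02 with values scaled to a common total. On TCP, Ddit3 stood at 27.8 FPKM, between the means of the films. Atf4 was 220 FPKM there, below both means, and Atf5 51.7, above both.

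The other chaperone families lay in the cytosol and the endoplasmic reticulum. The cytosolic Hsp70 and Hsp110 genes had a median log2 fold change of 1.42, and 5 of 8 tested were called higher without the block, beside 1.10% of all tested genes, among them Hspa1b, Hspa1a, Hsph1 and Hspa1l at 5.69, 5.47, 2.38 and 1.43. Hspa1a and Hspa1b are close paralogs whose reads may have been shared. With the block 6 were called higher and 1 lower (Hspa14, log2 fold change -0.42, named after its value was seen), beside 13.0% and 11.4% of all tested genes. All 8 subunits of the cytosolic chaperonin, the counterpart of Hspd1 outside the mitochondrion, had positive log2 fold changes with a median of 0.32, and 0 were called without the block and 8 with it, beside 13.0% of all tested genes. That median was 0.21 with values scaled to a common total and 0.17 with quantile normalization. Tcp1, Cct6a, Cct5 and Cct3 led them at 0.53, 0.40, 0.40 and 0.33. Of 14 chaperones of the endoplasmic reticulum, 0 were called without the block and 1 with it (Canx, log2 fold change 0.32, limma adjusted p = 0.0351), no more than the 13.0% of all tested genes, and the median was 0.03, or -0.08 with values scaled to a common total. Dnajb9, Hyou1 and Sdf2l1 were at 0.35, -0.14 and -0.12 and were not called. Differences between the families were not tested.

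**Figure D4:**
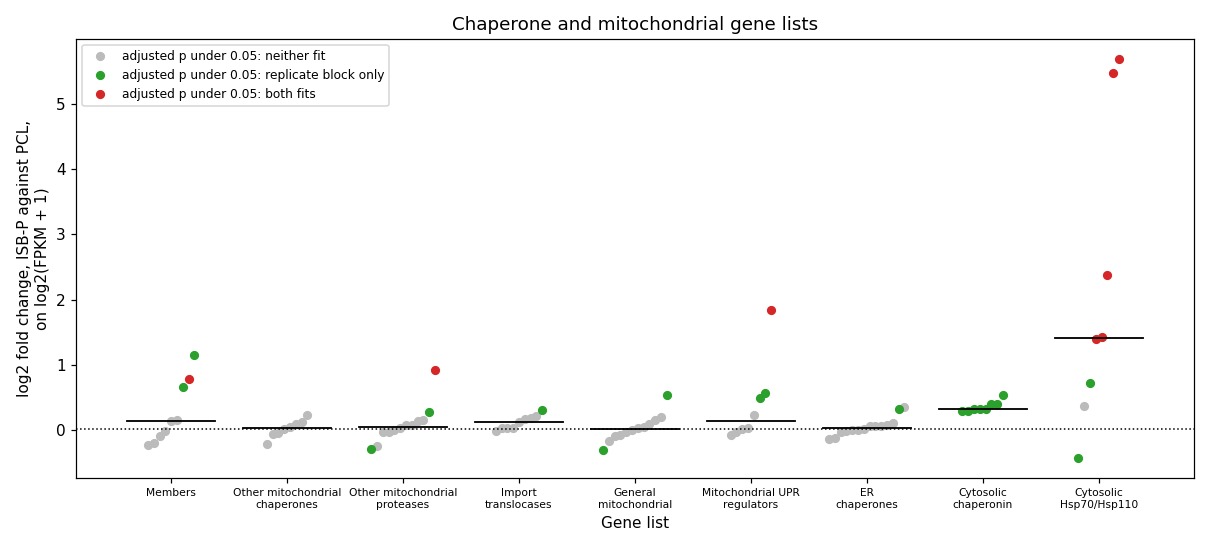
Log2 fold change between ISB-P and PCL for each tested gene of 9 lists, with a line at the median of each list and a dotted line at the median of all tested genes (0.02). Red points were called by limma in both fits, green points with the replicate block alone and grey points in neither; the chaperonin genes Hspd1 and Hspe1 and Hspa9 stand apart from the remaining members, while the cytosolic Hsp70 and Hsp110 genes reach 5.69.

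Of 4794 other tested genes whose mean over the libraries reached 16 FPKM, the 5 whose levels over the 7 libraries were most like those of Hspd1 were Kpna5 (an importin alpha), Riok3 (a RIO kinase), Prdx1 (a peroxiredoxin), Ypel5 and F3 (tissue factor). Likeness was the root mean square difference of log2(FPKM + 1), centred on the mean of each gene. It was 0.134 for Kpna5, 0.157 for Riok3, 0.194 for Prdx1, 0.238 for Ypel5 and 0.240 for F3, with a median of 0.878 over all genes ranked. By the same measure Hspa9 was 0.390 and Hspe1 0.486 from Hspd1, so that 34 and 116 other genes lay closer to it. Kpna5 was 5.24 FPKM on TCP, 8.88, 12.7 and 15.2 in replicates 1, 2 and 3 of PCL and 18.1, 22.6 and 41.7 on ISB-P, with the same order of libraries as Hspd1. None of these 5 genes was called without the block, F3 being nearest (log2 fold change 1.59, limma adjusted p = 0.0508). In all 5, each ISB-P library lay above the PCL library with its own number. The genes were picked for likeness to Hspd1 over these same libraries, so a shared order follows from the choice and is no separate evidence. Kpna5 lay below 16 FPKM on TCP and PCL and passed the filter through its ISB-P libraries. Their outcome with the block is not given here.

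**Figure D5:**
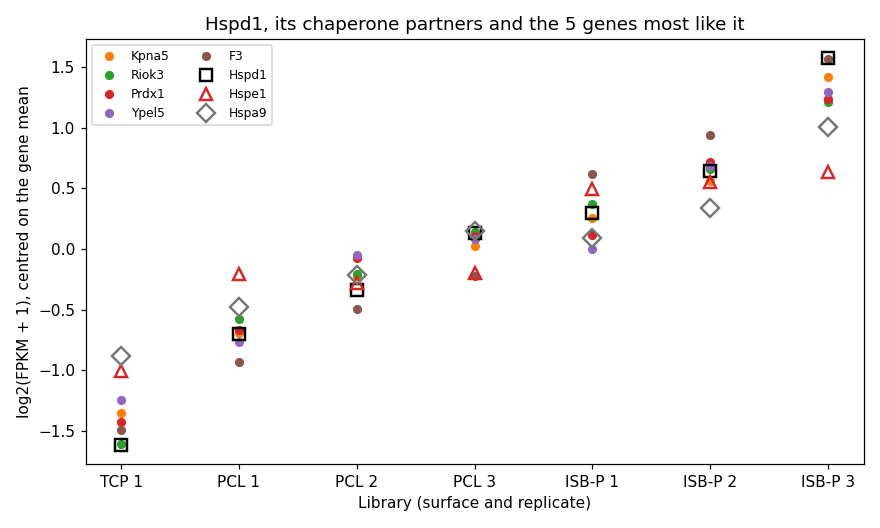
Log2(FPKM + 1), centred on the mean of each gene, of Hspd1, Hspe1, Hspa9 (open markers) and the 5 genes most like Hspd1 (filled markers) in each library. Hspd1 and the 5 genes are lowest on TCP and highest in ISB-P replicate 3, whereas Hspe1 lies nearly level within each film.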

How the data were processed

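RNA-seq values of 7 libraries, grouped by their titles, were used (1 of TCP and 3 of each film). The authors prepared TruSeq stranded mRNA libraries, read as paired ends. Per the labels, the submitters' processing notes name bcl2fastq 2.20.0.422, cutadapt 1.18, TopHat2 2.0.13, Cuffdiff 2.2.1 and the build rn5, and the methods name ExDEGA. The deposited values carry no stated unit and were read as FPKM from these tools and because they are not whole numbers. Among values under 0.06 FPKM, at most 45.5% of ratios between 2 libraries fell in a log2 window of 0.15, so reads could not be recovered and depth is unknown.

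ISB-P and PCL were compared with limma 3.58.1 in R 4.3.3 on log2(FPKM + 1) in a two-sided test with a mean-variance trend, and p-values were adjusted by Benjamini-Hochberg over 9467 genes. A fold change on this scale understates that of low genes. TCP stayed outside the fit. Across genes, the deviations of libraries with the same replicate number from the mean of the film correlated at r = 0.887, 0.431 and 0.867. Blocked values are therefore given. What a shared number stands for is not stated, so the block rests on these correlations in the same data. Calls made with the block alone depend on it, and no film library was left out in a fit with the block. The fit was tested on simulated data.

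All members were named, with up to 4 genes of largest absolute log2 fold change from each other list and the 5 genes most like Hspd1. Members and lists were chosen with earlier results of these data known. A pair of Clpp and Clpx was planned and not analysed here. Promoters are from RefSeq (GRCr8), while expression was measured on rn5. Alternatives were other scalings, filters and pseudocounts, the block, TCP in the fit, no trend, and each film library left out. Figures used matplotlib 3.10.9 in Python 3.11.15.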

Additional observations from a re-analysis of the deposited data

How the results depend on the processing

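With the replicate number as a block, 3 members were called higher on ISB-P, and with the block and values scaled to a common total 3 were called higher and 2 lower (Grpel1 and Htra2, log2 fold changes -0.31 and -0.34), against 1 and 0 without either. The block changed no other call among the members. Scaling to a common total moved the median of all tested genes from 0.02 to -0.09 on the log2 scale, and the median of the members to 0.02. With each film library left out in turn, the number of members called higher ranged from 0 to 1 and the number past the thresholds of the study from 0 to 1. The log2 fold changes of Clpx, Grpel2 and Lonp1 changed sign in these fits, over -0.20 to 0.40, -0.23 to 0.17 and -0.00831 to 0.26, and the difference between Grpel1 and Grpel2 ranged from -0.52 to 0.10. The cause was not tested. Upper quartile scaling, quantile normalization, a pseudocount of 0.1, both other filters, TCP in the fit and no trend left the count of members called higher, 1, and lower, 0, as they were, and the log2 fold changes of Hspd1, Hspe1 and Hspa9 stayed positive throughout. The medians of the other mitochondrial chaperones, proteases, general mitochondrial genes and endoplasmic reticulum chaperones were below 0 under upper quartile scaling and a common total and, except that of the chaperones of the mitochondrion, under quantile normalization. The number of libraries, 3 per film, limits precision, and read depth is unknown.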

Other observations

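Promoters of the cytosolic Hsp70 and Hsp110 genes were searched for the same letters as those of the mitochondrial genes. Of 9 genes, 8 had a promoter in the RefSeq table and 4 of these held a heat shock core (Hspa2, Hspa4l, Hspa8 and Hsph1). Hspa1a, with a log2 fold change of 5.47, held none between 250 bases before and 50 bases after its annotated start, which says only that these letters are not in this window. TGATGNAA was matched in 1 of the 8 promoters, that of Hspa14.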
